A study of Homo sapiens with 12 samples.

Results

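The 10 genes described here are the DNA damage kinases ATM and ATR, their effector kinases CHEK1 and CHEK2, the CDK-inhibiting kinases WEE1 and PKMYT1, the CDK-activating phosphatases CDC25A, CDC25B and CDC25C, and SLFN11. They were taken by symbol from the 60649 genes of the count files, and all 10 were found. RNA was sequenced from spheroids of the human line SBC3, which derives from small cell lung cancer, in 4 groups of 3 libraries. The control spheroids received neither drug, the second group received teriflunomide, the third lurbinectedin, and the fourth teriflunomide and lurbinectedin together. Teriflunomide blocks DHODH, an enzyme that cells need to make pyrimidines. Lurbinectedin alkylates DNA in the minor groove and stalls RNA polymerase II. Doses and times were not given in the sources used here. The labels do not say whether the libraries of a group came from separate cultures, so the p-values measure the spread between these libraries, which may be technical. All groups share 1 cell line, so nothing here extends beyond it.

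ATR, held at stalled replication forks by its partner proteins, phosphorylates CHEK1, and ATM, activated at double-strand breaks, phosphorylates CHEK2. The effector kinases inhibit the CDC25 phosphatases, which otherwise remove the inhibitory phosphates that WEE1 and PKMYT1 place on CDK1, and WEE1 on CDK2. SLFN11 is a Schlafen family protein that binds stalled forks and blocks replication, and its level is known as a correlate of sensitivity to DNA-damaging drugs in small cell lung cancer. These proteins are controlled largely by phosphorylation and degradation, which RNA levels do not show.

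Libraries held 23206414 to 33222162 counted reads, and 16683 genes passed the filter on low counts, 9 of the 10 members among them. SLFN11 did not pass. The neuroendocrine markers of small cell lung cancer were low: 5 of 10 passed the filter, their summed level was 25.2 to 26.8 CPM (counts scaled to TMM-adjusted library totals) in the control libraries and 42.6 to 45.6 with lurbinectedin, and INSM1 and GRP had no count in any library. Most of that sum was SYP, which rose from 16.8 to 30.9 CPM. With lurbinectedin 3 of the 5 were called higher and 1, NEUROD1, lower, from 4.0 to 1.6 CPM. YAP1, a marker of the non-neuroendocrine state, stood at 246 ± 11.96 CPM (SD, n = 3) in control spheroids and at 64.9 with lurbinectedin. Of 9 markers of immune, endothelial and stromal cells 4 passed, with summed levels of 275 to 288 CPM in control, 262 to 283 with teriflunomide, 119 to 134 with lurbinectedin and 117 to 132 with both drugs, most of it COL1A1, and CD3E had no count. With lurbinectedin 3 of these 4 were called lower and 1, ACTA2, higher. Of all genes tested 36.0% were called higher and 35.7% lower with lurbinectedin. The share of counts on mitochondrial genes was 6.26 to 7.17% in control, 8.42 to 22.6% with teriflunomide, 13.8 to 17.0% with lurbinectedin and 13.1 to 24.9% with both. The highest shares were in teriflunomide replicate 3 and combination replicate 2, so values without them are given beside the member results they move most. The part of these markers and shares in the results below was not tested.

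Promoter windows of 4 members show the sequence before the starts of members whose RNA behaved differently: CHEK2 and CHEK1, which fell to unequal extents with lurbinectedin, CDC25A, which rose, and SLFN11, which was barely detected. Each is the 250 bases before an annotated start in RefSeq (GRCh38.p14), printed 5′ to 3′ on the gene's strand. CHEK1 has other windows, which are not printed. The CHEK2 and CHEK1 windows lie inside the span of their gene in the count files, so they precede a start within that span. Capitals mark letters found on either strand: the CCAAT box (CCAAT), the cell cycle homology region or CHR (TTTGAA), an E2F site (TTTGGCGC or TTTCGCGC) and the GC box (GGGCGG), elements known from promoters of cell cycle genes.
CHEK2, chr22:28741821-28742070, minus strand: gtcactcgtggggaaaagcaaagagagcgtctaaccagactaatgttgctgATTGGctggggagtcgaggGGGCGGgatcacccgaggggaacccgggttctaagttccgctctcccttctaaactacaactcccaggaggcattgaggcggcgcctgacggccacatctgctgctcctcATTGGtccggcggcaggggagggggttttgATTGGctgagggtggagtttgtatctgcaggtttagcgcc
CHEK1, chr11:125626106-125626355, plus strand: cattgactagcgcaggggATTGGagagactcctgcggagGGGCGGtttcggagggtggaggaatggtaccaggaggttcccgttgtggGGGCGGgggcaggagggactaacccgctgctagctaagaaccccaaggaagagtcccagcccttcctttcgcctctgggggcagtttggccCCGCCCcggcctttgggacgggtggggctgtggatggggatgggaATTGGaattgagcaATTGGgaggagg
CDC25A, chr3:48188418-48188667, minus strand: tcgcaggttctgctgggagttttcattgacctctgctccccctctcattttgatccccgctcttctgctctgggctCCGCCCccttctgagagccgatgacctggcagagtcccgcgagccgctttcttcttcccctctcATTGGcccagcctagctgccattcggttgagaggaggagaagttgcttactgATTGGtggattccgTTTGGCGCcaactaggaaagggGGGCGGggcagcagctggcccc
SLFN11, chr17:35373622-35373871, minus strand: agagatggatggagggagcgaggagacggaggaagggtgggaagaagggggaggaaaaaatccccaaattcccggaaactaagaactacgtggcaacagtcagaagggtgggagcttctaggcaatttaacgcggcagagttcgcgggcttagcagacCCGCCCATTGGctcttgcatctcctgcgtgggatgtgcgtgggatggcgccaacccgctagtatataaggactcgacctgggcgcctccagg

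The CHEK2 window held 3 CCAAT boxes, which began 199, 70 and 40 bases before the start, and the printed CHEK1 window also held 3. The CHEK1 windows that are not printed held 1 CCAAT box each. In the CDC25A window CCAAT boxes began 110 and 58 bases before the start and an E2F site began at 44. The SLFN11 window held a CCAAT box at 86 bases and a GC box at 92. RefSeq windows were matched for 8 of the 10 members, 17 windows in all, and WEE1 and PKMYT1 were not matched. A CCAAT box stood in at least 1 window of 7 of the 8, a GC box in 7, a CHR in 2 (ATM and CDC25C) and an E2F site in 1 (CDC25A). Among all 27305 genes with windows these shares were 37.0%, 46.2%, 16.1% and 1.20%. The 8 members had 17 windows and the 27305 genes 35116, so members had more windows a gene in which to match. The shares of members and of all genes are therefore not like for like. CCAAT and GC boxes stood before members whose RNA rose and before members whose RNA fell, and a match of letters is a description, not a site of binding.

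With lurbinectedin against control the members moved in both directions. Levels here and below are relative to the other counts of a library, so rises and falls need not be changes in RNA per cell. ATM, ATR, CHEK1 and CHEK2 fell, WEE1, PKMYT1, CDC25A and CDC25B rose, and CDC25C did not pass the test. Thus 8 of the 9 tested members passed an adjusted p of 0.05, with the adjustment by Benjamini and Hochberg over all genes, where 71.6% of all genes tested were called, 36.0% higher and 35.7% lower. The groups did not overlap for 8 of 9 members, against 83.2% of all genes tested. With so wide a response the number of members called is near the background, and the description rests on their directions and sizes. The median log2 change of the 9 members was -0.07, and that of all genes tested was 0.05.

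**Figure D1:**
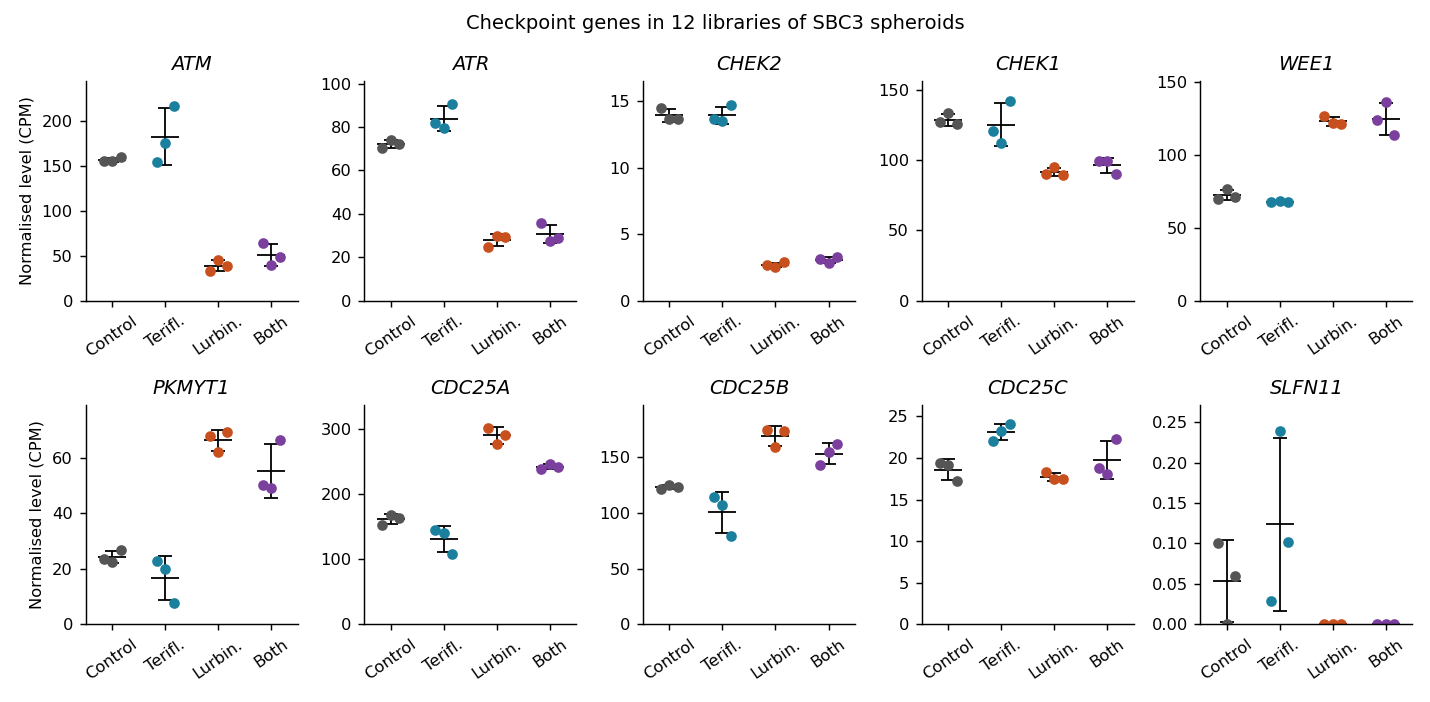
Normalised level of each of the 10 genes in CPM (vertical axes, each starting at 0) in the libraries of each group. Points are libraries and bars the mean ± SD of 3; CHEK2 falls from about 13.9 to 2.69 CPM with lurbinectedin, and SLFN11 has no count with lurbinectedin or with both drugs.

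ATM (ENSG00000149311.20, GRCh38 chromosome 11, 108223044 to 108369102, plus strand) stood at 155, 155 and 159 CPM in the control libraries and at 32.8, 44.7 and 38.7 with lurbinectedin. The highest lurbinectedin library was far below the lowest control library. ATM fell 4.04-fold, a log2 change of -2.01 (SE 0.175, edgeR adjusted p = 1.70e-07).

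ATR (ENSG00000175054.16, chromosome 3, 142449007 to 142578733, minus strand), the kinase of stalled forks, stood at 70.1, 74.0 and 72.0 CPM in control and at 24.7, 29.8 and 29.2 with lurbinectedin. These groups did not overlap either, and the drop was smaller than that of ATM: the log2 change was -1.37 (SE 0.122, edgeR adjusted p = 2.11e-07). Because ATM fell further, the libraries held more ATR counts per ATM count: 0.452 to 0.477 in control and 0.667 to 0.755 with lurbinectedin. In bulk spheroids, fewer cells with a transcript and less of it per cell cannot be told apart, here and for every gene below.

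The effector kinases differed most from each other. CHEK2 (ENSG00000183765.23, chromosome 22, 28687743 to 28742422, minus strand) stood at 14.5, 13.6 and 13.7 CPM in control and at 2.67, 2.54 and 2.87 with lurbinectedin. It fell 5.16-fold, the steepest drop among the members (log2 change -2.37, SE 0.128, edgeR adjusted p = 1.43e-09). CHEK1 (ENSG00000149554.14, chromosome 11, 125625163 to 125676255, plus strand) stood at 127, 133 and 126 CPM in control and at 90.0, 94.8 and 89.2 with lurbinectedin. It fell by a log2 change of -0.49 (SE 0.101, edgeR adjusted p = 0.000542), and its groups did not overlap. CHEK1 counts per CHEK2 count were 8.76 to 9.77 in control and 31.1 to 37.3 with lurbinectedin. Exons of CHEK2 overlap HSCB on the opposite strand over 6.52% of their length, and its pseudogene CHEK2P3 had 0 to 7 counts a library.

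Both kinases that phosphorylate CDK1 on its inhibitory sites rose. WEE1 (ENSG00000166483.12, chromosome 11, 9573670 to 9593457, plus strand) stood at 70.0, 76.6 and 71.5 CPM in control and at 127, 122 and 121 with lurbinectedin. All lurbinectedin libraries lay above all control libraries (1.70-fold, log2 change 0.76, SE 0.0924, edgeR adjusted p = 4.61e-06). PKMYT1 (ENSG00000127564.17, chromosome 16, 2968024 to 2980479, minus strand), the membrane-bound relative of WEE1, stood at 23.6, 22.5 and 26.7 CPM in control and at 67.9, 62.2 and 69.2 with lurbinectedin. It rose 2.74-fold, the largest increase among the members (log2 change 1.45, SE 0.273, edgeR adjusted p = 0.000285). PKMYT1 shares 24.7% of its exon length with PAQR4 on the opposite strand, which had 348 to 1006 counts a library, and whether the counting used strand was not given in the sources used here.

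Of the phosphatases, CDC25A (ENSG00000164045.12, chromosome 3, 48157146 to 48188417, minus strand), which acts on CDK2 and CDK1, stood at 153, 168 and 164 CPM in control and at 302, 277 and 291 with lurbinectedin. It rose 1.79-fold with no overlap between groups (log2 change 0.84, SE 0.108, edgeR adjusted p = 8.80e-06). CDC25B (ENSG00000101224.18, chromosome 20, 3786772 to 3806121, plus strand), a starter of mitotic entry, stood at 121, 125 and 123 CPM in control and at 174, 159 and 174 with lurbinectedin. It rose 1.37-fold (log2 change 0.46, SE 0.121, edgeR adjusted p = 0.00374), but with scaling by library size alone the change was 0.22 and was not called (edgeR adjusted p = 0.294). CDC25C (ENSG00000158402.21, chromosome 5, 138285269 to 138338355, minus strand), the mitotic phosphatase, stood at 19.4, 19.2 and 17.2 CPM in control and at 18.3, 17.5 and 17.4 with lurbinectedin. Its groups overlapped, and the log2 difference was -0.07 with a 95% interval of -0.29 to 0.16 (edgeR adjusted p = 0.604). CDC25C shares 8.80% of its exon length with FAM53C on the opposite strand, which had 1835 to 13064 counts a library.

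SLFN11 (ENSG00000172716.16, chromosome 17, 35350305 to 35373701, minus strand) was close to undetected in every group. Control libraries held 3, 0 and 2 counts, and teriflunomide libraries held 1, 8 and 3. All 6 libraries with lurbinectedin, alone or in combination, held 0. Summed over the group, control had 5 counts, or 0.0536 CPM (exact Poisson 95% interval 0.0174 to 0.125), and the upper limit of the same interval was 0.05003 CPM for the 0 counts with lurbinectedin and 0.0446 for the combination. These limits overlap the control interval, and overlap of separate intervals does not decide whether SLFN11 differed from control. The 12 counts with teriflunomide, 8 of them in replicate 2, gave 0.124 CPM (0.0640 to 0.216), an interval that overlaps that of control and lies above the upper limits for lurbinectedin and for the combination. Such intervals cover counting error only.

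Other Schlafen genes were measured in the same libraries. SLFN12 was the most abundant, with 7.25 CPM in control, and passed no test against control. SLFN5, a Schlafen gene known to be induced by interferon, averaged 1.76 ± 0.0960 CPM in control, 4.09 ± 0.920 with teriflunomide, 2.62 ± 0.00154 with lurbinectedin and 4.50 ± 0.512 with both (SD, n = 3). It rose with teriflunomide (log2 change 1.21, edgeR adjusted p = 0.00241), with lurbinectedin (0.57, edgeR adjusted p = 0.0150) and with both (1.35, edgeR adjusted p = 1.54e-05). The lurbinectedin change was not called with library size scaling, where it was 0.34, or with no filter on low counts. SLFN13 had 20 counts summed over control, 54 over teriflunomide, 9 over lurbinectedin and 13 over combination libraries.

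Teriflunomide alone called none of the 9 tested members, where 6.01% of all genes tested were called, 3.88% higher and 2.13% lower. The edgeR adjusted p was 0.105 or more for every member, and 3 members (CDC25A, CDC25B and CDC25C) had an unadjusted p under 0.05; DESeq2 also called none. The groups did not overlap for 5 of 9 members, against 36.8% of all genes tested. CDC25C stood at 22.1, 23.2 and 24.02 CPM with teriflunomide, all above the control libraries (log2 difference 0.31, edgeR adjusted p = 0.115). CDC25A stood at 145, 140 and 107 CPM, all below control (-0.31, edgeR adjusted p = 0.105), and CDC25B at 115, 107 and 79.3 (-0.29, edgeR adjusted p = 0.156). ATR stood above control and WEE1 below it without overlap. CHEK2 was level, with a log2 difference of 0.00 and a 95% interval of -0.22 to 0.22.

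One teriflunomide library decided the spread of several of these values. In replicate 3, PKMYT1 stood at 7.84 CPM, against 22.8 and 19.9 in the other teriflunomide libraries, and ATM at 217 CPM, against 154 and 175. CDC25A and CDC25B were also lowest there, by log2 differences of -0.41 and -0.48 from the other libraries of the group. This library had 22.6% of its counts on mitochondrial genes; the part of that in these values was not tested. Without it and combination replicate 2, the PKMYT1 difference between teriflunomide and control was -0.19 in place of -0.52, that of CDC25A -0.18 in place of -0.31, that of CDC25B -0.15 in place of -0.29 and that of ATM 0.08 in place of 0.22, and none of these was called. With all libraries and no filter on low counts PKMYT1 was called (edgeR adjusted p = 0.0136).

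**Figure D2:**
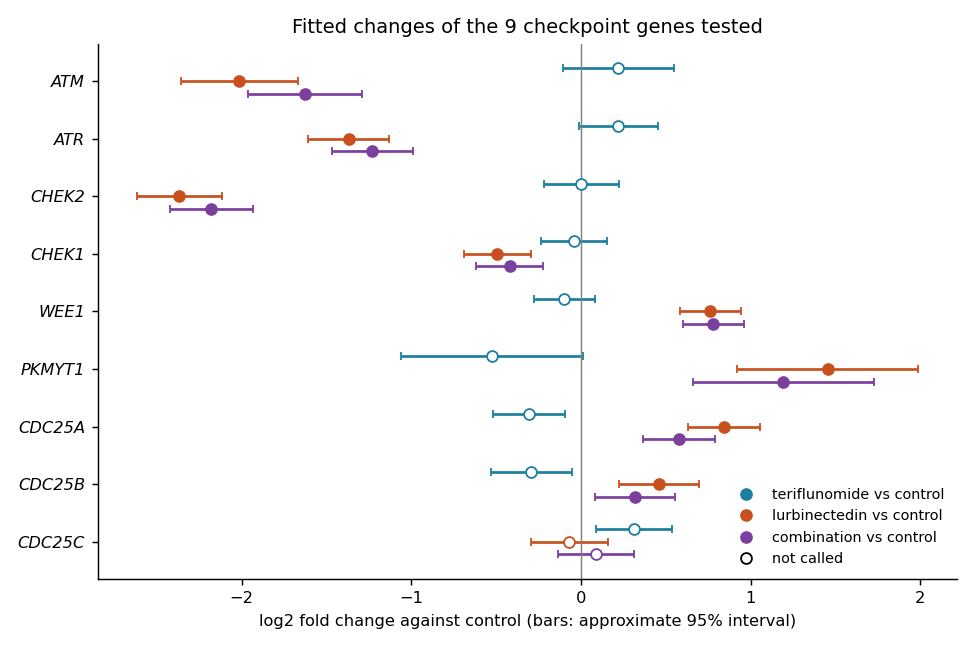
Log2 change of the 9 tested members against control (horizontal axis) for teriflunomide, lurbinectedin and the combination, with bars for an approximate 95% interval. The lurbinectedin and combination estimates lie close together for each gene, from -2.37 for CHEK2 to 1.45 for PKMYT1 with lurbinectedin. The teriflunomide estimates, none of them called, run from -0.52 for PKMYT1 to 0.31 for CDC25C.

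With both drugs, the same 4 members were higher and the same 4 lower than in control, 8 of 9 called, where 68.4% of all genes tested were called (34.1% higher, 34.4% lower) and 77.2% did not overlap. This comparison shares its control libraries with that of lurbinectedin alone. ATM stood at 63.6, 39.5 and 48.6 CPM, ATR at 35.7, 27.4 and 29.03, and CHEK2 at 3.11, 2.82 and 3.25, all far below control. Their log2 changes were -1.63 (edgeR adjusted p = 1.52e-06), -1.23 (7.17e-07) and -2.18 (3.26e-09). CHEK1 stood at 99.3, 99.2 and 89.9 CPM (log2 change -0.42, edgeR adjusted p = 0.00201). WEE1 stood at 124, 136 and 114 CPM, above control in each library (log2 change 0.78, edgeR adjusted p = 4.28e-06). PKMYT1 stood at 50.4, 49.3 and 66.6 CPM and CDC25A at 238, 246 and 242, and their log2 changes were 1.19 (edgeR adjusted p = 0.00145) and 0.58 (0.000298). CDC25B, at 143, 155 and 162 CPM, had the weakest call: its log2 change of 0.32 (edgeR adjusted p = 0.0315) lost the call under 8 alternatives, among them leaving out any 1 control library or combination replicate 2 or 3, and under those 8 the changes ran from 0.15 to 0.32. CDC25C stood at 18.8, 18.1 and 22.3 CPM, with a log2 difference of 0.09 (edgeR adjusted p = 0.510).

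Adding teriflunomide to lurbinectedin called none of the 9 members, and none of all genes tested (0.0%), at an edgeR adjusted p under 0.05. Unadjusted p was under 0.05 for 2 members and for 2599 genes in all, and DESeq2 called 584 genes, none of them a member. CDC25A was the only member whose groups did not overlap (23.7% of all genes tested did not): 277 to 302 CPM with lurbinectedin and 238 to 246 with both, a log2 difference of -0.26 (edgeR adjusted p = 0.275). ATM was 0.39 higher with both drugs (95% interval 0.05 to 0.72, edgeR adjusted p = 0.302). Without combination replicate 2, the library with the lowest ATM of its group, and without teriflunomide replicate 3, ATM was 0.54 higher (edgeR adjusted p = 0.00690) and CDC25A was called as well (edgeR adjusted p = 0.00763). In that fit 21.5% of all genes tested were called, so 2 of 9 members is near the background. Without teriflunomide replicate 3 alone, which is in neither group compared, CDC25A was called at nearly the same difference (-0.26, edgeR adjusted p = 0.0225). With all libraries the log2 difference for WEE1 was 0.02, with a 95% interval of -0.16 to 0.20. The test of the interaction, which asks whether the effect of both drugs differs from the sum of the single effects on the log2 scale, called none of the 9 members and 0.258% of all genes tested, 0.036% higher and 0.222% lower. Member estimates ran from -0.16 for CDC25C to 0.26 for PKMYT1, the edgeR adjusted p was 0.782 or more, and no member had an unadjusted p under 0.05. Without teriflunomide replicate 3 and combination replicate 2 the ATM estimate was 0.46 in place of 0.17 (edgeR adjusted p = 0.0993) and that of PKMYT1 was 0.01, and without teriflunomide replicate 3 alone that of PKMYT1 was -0.07. DESeq2 called 258 genes for the interaction and no member.

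Combination and teriflunomide libraries were also compared, to show lurbinectedin added to teriflunomide. WEE1, PKMYT1, CDC25A and CDC25B were higher and ATM, ATR, CHEK1 and CHEK2 lower, 8 of 9 members, where 70.9% of all genes tested were called (35.2% higher, 35.8% lower) and 70.7% did not overlap. The log2 changes ran from -2.18 for CHEK2 (edgeR adjusted p = 3.19e-09) to 1.72 for PKMYT1 (7.54e-05). CDC25C was 0.23 lower on the log2 scale and was not called (edgeR adjusted p = 0.0906), but it was called without combination replicate 3 (-0.32, edgeR adjusted p = 0.0222).

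Levels can be compared between genes only per length, as CPM per kilobase of the exon length in the files. In control spheroids the order of these levels was CDC25A (39.1), CDC25B (31.5), CHEK1 (23.0), WEE1 (7.86), CDC25C (5.59), PKMYT1 (4.88), ATM (3.99), CHEK2 (3.10), ATR (2.65) and SLFN11 (0.00893). Only CDC25C, at 5.17 to 5.84, and PKMYT1, at 4.52 to 5.38, overlapped among neighbours in this order. With lurbinectedin the level per kilobase was 70.0 for CDC25A and 43.3 for CDC25B, 16.3 for CHEK1, 13.4 for PKMYT1 and 13.3 for WEE1, which overlapped, 5.33 for CDC25C, 1.02 for ATR and 0.988 for ATM, which overlapped, and 0.599 for CHEK2. PKMYT1 thus stood beside CDC25C in control and beside WEE1 with lurbinectedin, where CHEK2 had the lowest level of the 9. The exon lengths join all annotated exons of each gene, and those of ATM (39184 bases) and ATR (27234) are the longest among the members. Levels per kilobase may thus be understated by unequal amounts, and the order of the members depends on this.

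Ratios of member pairs within a library do not depend on the scaling. The pairs were chosen after the values were seen, 6 pairs against control in 3 groups, 18 tests in all, and with 3 libraries against 3 the smallest p of the exact permutation test is 0.1. CHEK1 counts per WEE1 count were 1.74 to 1.81 in control, 1.63 to 2.10 with teriflunomide, 0.711 to 0.778 with lurbinectedin and 0.728 to 0.799 with both. The ratio was lower in all 6 libraries with lurbinectedin than in any library without it. PKMYT1 counts per WEE1 count were 0.294 to 0.374 in control and 0.510 to 0.571 with lurbinectedin, and with both drugs, at 0.362 to 0.585, they overlapped control. CDC25A counts per WEE1 count were 2.19 to 2.29 in control and 2.28 to 2.40 with lurbinectedin, which overlapped (exact permutation p = 0.2, two-sided), and 1.59 to 2.14 with teriflunomide and 1.80 to 2.12 with both, each below control (p = 0.1 by the same exact test). CDC25A counts per CDC25C count were 7.88 to 9.53 in control, 4.48 to 6.55 with teriflunomide, 15.9 to 16.7 with lurbinectedin and 10.8 to 13.6 with both, with no overlap between any 2 of these groups. For the ratios of CHEK1 to CHEK2, CHEK1 to WEE1 and ATR to ATM, the exact permutation p was 0.1 with lurbinectedin and with both (adjusted over the 18 tests, 0.15).

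**Figure D3:**
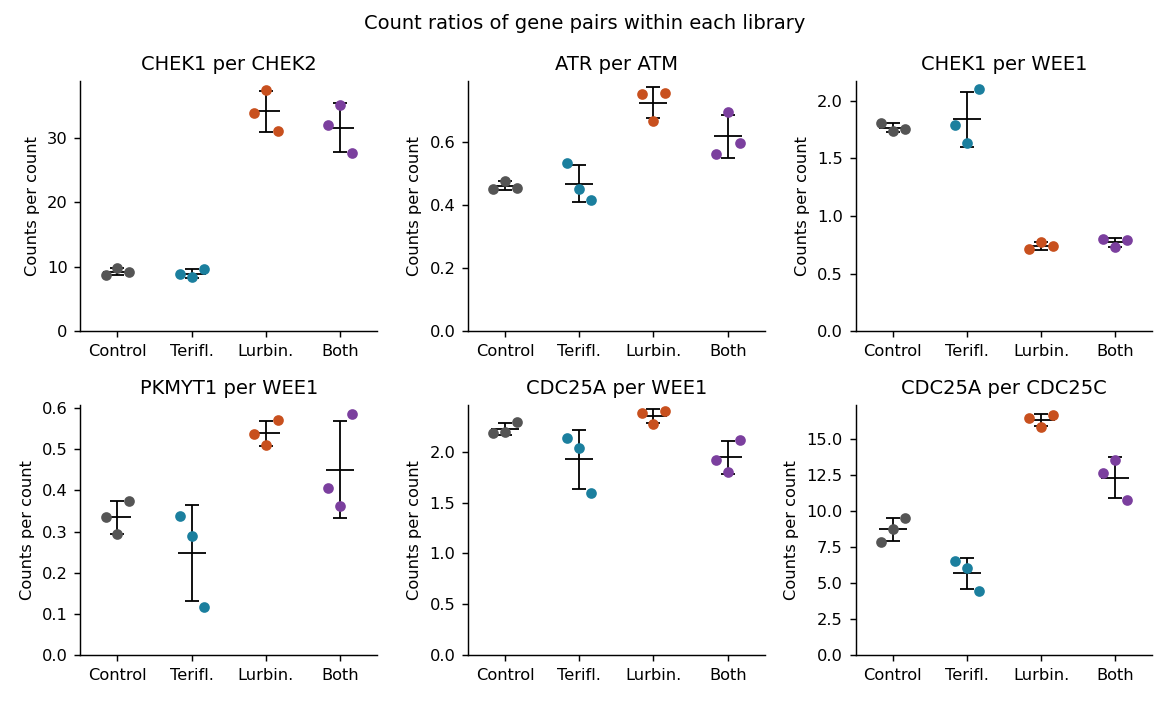
Counts of one gene per count of another in each library (vertical axes, from 0) for 6 pairs of members, by group. Points are libraries and bars the mean ± SD of 3; CHEK1 per CHEK2 lies at 8.76 to 9.77 in control and at 31.1 to 37.3 with lurbinectedin.

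The members differ in the length of genome they span, and the change with lurbinectedin was set beside it. The long genes ATM (146 kb) and ATR (130 kb) lay in the longest of 5 equal bins of all nuclear genes tested (82.9 kb and more), where the median log2 change with lurbinectedin was -1.86 and the interquartile range ran from -3.12 to -0.91. Both lay inside that range. CHEK2 (54.7 kb), CDC25C (53.1 kb) and CHEK1 (51.1 kb) span nearly the same length, in the bin of 35.9 to 82.9 kb, with a median of -0.36 and an interquartile range from -0.99 to 0.26. CHEK2, at -2.37, lay below that range, and CHEK1 and CDC25C lay inside it. CDC25A (31.3 kb), WEE1 (19.8 kb) and CDC25B (19.4 kb) lay in the bin of 16.3 to 35.9 kb, with a median of 0.28 and an interquartile range from -0.29 to 0.83, and CDC25A, at 0.84, lay just above it. PKMYT1 (12.5 kb) lay above the interquartile range of its bin, which ended at 1.24. Across genes, Spearman's rho between span and change was -0.867 over the 9 members, -0.616 over 60 other genes of the pathway and -0.572 over 16651 nuclear genes. Genes of 1 experiment share their libraries and are not independent, so these are descriptions, and the part of span in the members' changes was not tested.

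**Figure D4:**
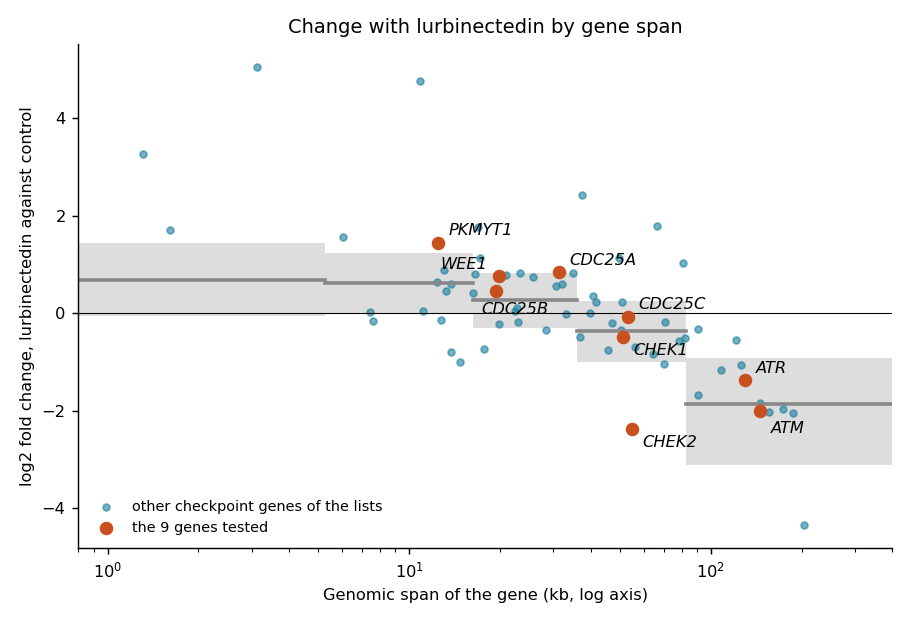
Log2 change with lurbinectedin against control (vertical axis) by the length of genome a gene spans (horizontal log axis, kb), with the 9 tested members named, other pathway genes as small points, and the median and interquartile range of all nuclear genes in 5 bins. ATM and ATR lie within the longest bin, with its median of -1.86, and CHEK2 lies below the interquartile range of its bin.

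Genes with the most similar pattern over the 12 libraries were found by the root mean square difference of log2 CPM after each gene's control mean was subtracted. The nearest gene to ATM was TMOD2 at 0.0771, where the median over all genes was 1.43, and the nearest to CHEK2 was SLC11A2 at 0.106 (median 1.67). The other nearest genes were PCYOX1 for ATR (0.0543), ASB7 for CHEK1 (0.0599), MSL1 for WEE1 (0.0536), PIM3 for PKMYT1 (0.112), EIF1 for CDC25A (0.0430), AP2M1 for CDC25B (0.0401) and TSG101 for CDC25C (0.0890). No member was nearest to another. The closest of so many genes is bound to lie far below the median and is unlikely to be a member, so this does not show whether members moved alike.

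Beyond the members, 62 genes in 9 lists cover the rest of the pathway, and 60 of them were tested. Lurbinectedin raised 24 and lowered 20, with a median log2 change of 0.01. Both drugs together raised 22 and lowered 22, and teriflunomide alone raised 5 (PPM1D, SLFN5, CDKN1A, GADD45A and MDM2) and lowered none. These shares stand beside the 71.6%, 68.4% and 6.01% of all genes given above. The counts of each list below stand beside the 36.0% of all genes called higher and 35.7% called lower with lurbinectedin. With so few genes a list, these counts are descriptions and no list was tested as a set.

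Among the sensors and activators of ATR, 6 of 11 rose and 4 fell with lurbinectedin. RPA2, a subunit of the complex that coats single-stranded DNA, rose from 74.5 to 132 CPM (log2 change 0.83, edgeR adjusted p = 1.27e-05), and RAD1, part of the checkpoint clamp, from 48.9 to 74.6 (0.61, 3.62e-05). TOPBP1, which activates ATR, fell from 162 to 90.7 CPM (-0.84, edgeR adjusted p = 2.20e-05), and RAD17, which loads the clamp, from 37.8 to 22.3 (-0.76, 0.000610). The mediators also went both ways, with 4 of 9 higher and 3 lower. CLSPN, the adaptor of CHEK1, rose from 183 to 403 CPM (1.14, edgeR adjusted p = 8.40e-06), and H2AX, the histone that ATM and ATR mark, from 123 to 403 (1.72, 1.35e-05). TP53BP1 and BRCA1, adaptors at breaks, fell, by log2 changes of -1.16 (edgeR adjusted p = 8.83e-07) and -1.06 (2.20e-05).

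Of the activators of ATM, 3 of 4 fell and none rose, where 35.7% of all genes tested were called lower and 36.0% higher. RAD50 fell from 6.18 to 1.93 CPM (log2 change -1.68, edgeR adjusted p = 4.78e-06) and NBN from 114 to 55.5 (-1.03, 5.16e-06), both subunits of the complex that senses broken ends. Among the kinases related to ATM and ATR and their shared chaperones, 5 of 7 fell and 1 rose. MTOR fell from 182 to 44.7 CPM (-2.03, edgeR adjusted p = 1.01e-08) and TRRAP, the family member without kinase activity, from 244 to 62.2 (-1.97, 4.40e-09). TELO2, part of the chaperone complex that stabilises these kinases, rose from 33.7 to 73.6 CPM (1.13, edgeR adjusted p = 0.00949), a call lost with library size scaling (0.89).

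Downstream of the CDC25 phosphatases, 4 of 7 CDKs and cyclins rose and none fell. CDK1, the substrate of WEE1 and PKMYT1, rose from 147 to 257 CPM (log2 change 0.81, edgeR adjusted p = 1.36e-06). CDK2 rose from 79.9 to 236 CPM (1.56, edgeR adjusted p = 7.88e-09) and its partner CCNE2 from 43.2 to 147 (1.76, 1.33e-08). Of the genes of checkpoint recovery 1 of 7 rose and 3 fell with lurbinectedin. PPM1D, the phosphatase that reverses ATM and CHEK kinase signalling, rose from 52.5 to 183 CPM (1.80, edgeR adjusted p = 5.78e-08). BTRC and FBXW11, the paired F-box proteins that mark CDC25A and WEE1 for degradation, fell from 55.3 to 2.701 CPM (-4.35, edgeR adjusted p = 4.96e-09) and from 45.1 to 12.6 (-1.84, 1.82e-08).

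Among the 7 genes of 14-3-3 proteins, which hold phosphorylated CDC25 phosphatases in the cytoplasm, 3 rose and 2 fell. SFN, a p53 target, rose from 2.85 to 27.3 CPM (log2 change 3.26, edgeR adjusted p = 4.73e-10) and YWHAH from 79.0 to 147 (0.90, 1.89e-06), while YWHAE fell from 982 to 605 (-0.70, 3.59e-05) and YWHAZ from 1296 to 925 (-0.49, 0.00402). In the p53 arm 4 of 5 rose. GADD45A, a stress gene, rose from 8.42 to 280 CPM (5.06, edgeR adjusted p = 2.51e-10), and CDKN1A, the CDK inhibitor p21, from 22.8 to 620 (4.76, 3.96e-10). With teriflunomide alone GADD45A rose to 21.5 CPM (1.35, edgeR adjusted p = 0.00191). CDKN1A stood at 43.7 CPM (0.94, edgeR adjusted p = 0.0141) and PPM1D at 80.4 (0.61, 0.0218), calls lost when any 1 control library was left out.

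**Figure D5:**
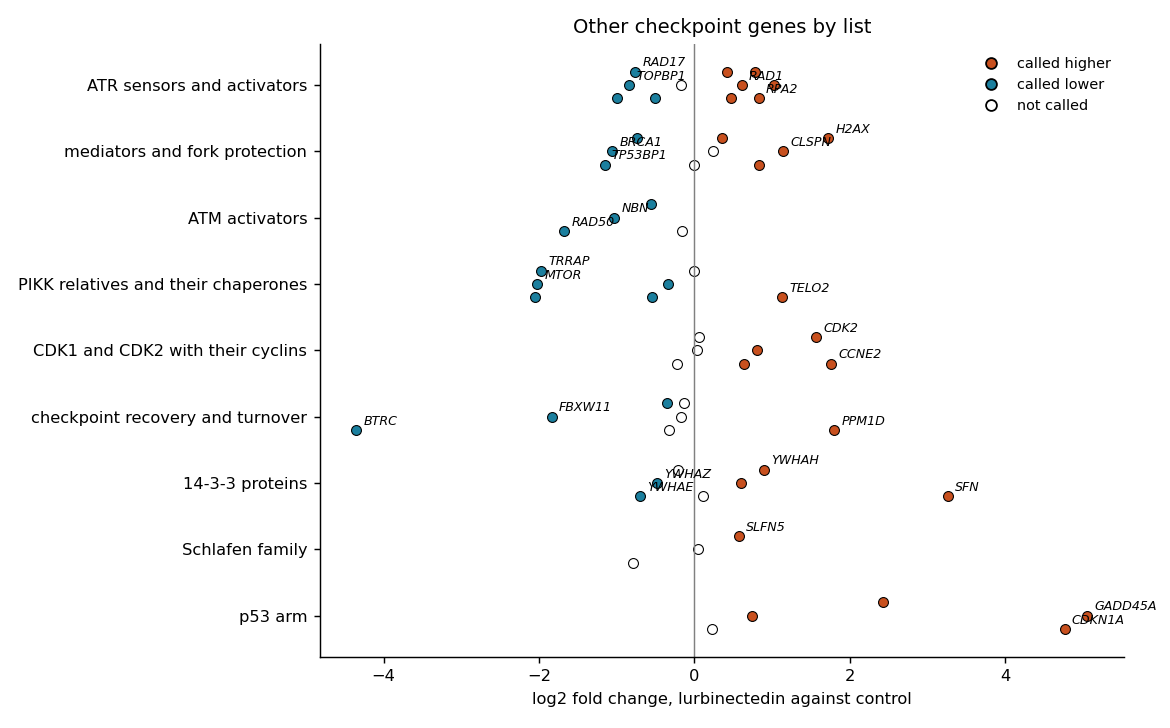
Log2 change with lurbinectedin against control (horizontal axis) for the tested genes of 9 pathway lists, 1 row a list and 1 point a gene, coloured by call. The members and the list medians are not drawn. The p53 arm has the highest median, 2.42, and the activators of ATM the lowest, -0.80.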

How the data were processed

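RNA-seq was measured in 12 libraries, 3 in each of 4 groups taken from the labels. The authors deposited raw read counts per gene, 1 file a library. Per the submitters' processing notes the reads passed through fastp 0.23.2, STAR 2.7.9 and featureCounts of Subread on hg38; roles and settings are not given in the sources used here. Gene IDs (60507 of 60649) were matched to symbols from GENCODE tables. Counts were fitted with edgeR 4.0.16 (R 4.3.3): filterByExpr, TMM, a robust quasi-likelihood fit over all 12 libraries, Benjamini-Hochberg over 16683 genes, called under 0.05. CPM uses TMM-scaled totals. The biological coefficient of variation was 14.5%. The fit was tested on simulated counts in which far fewer genes changed than were called here with lurbinectedin. That test does not cover so wide a response. Exact permutation tests used scipy 1.17.1. Promoters came from RefSeq.

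Alternatives were DESeq2 1.42.0, its size factors, library size alone, other filters, a threshold of 0.01, a replicate block, only the groups compared, and leaving out libraries. Named genes were all members, up to 2 list genes a direction by smallest adjusted p with lurbinectedin, CDK1, and each member's nearest gene; genes named for teriflunomide were chosen after their values were seen. The members and lists were chosen with earlier results of these data known.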

Additional observations from a re-analysis of the deposited data

Results flagged for a closer look

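GADD45A and ACTA2, outside the members, responded to the drugs together by less than the sum of their single effects, by the interaction test over all genes. For GADD45A the interaction was -1.43 on the log2 scale (edgeR adjusted p = 0.0444): it rose by 1.35 with teriflunomide, 5.06 with lurbinectedin and 4.98 with both. Leaving out any 1 control or lurbinectedin library ended that call, as did 5 other alternatives, and estimates ran from -1.67 to -1.25. For ACTA2, a smooth muscle actin among the stromal markers, it was -0.91 (edgeR adjusted p = 0.0444), with changes of 1.10, 0.62 and 0.80, and 14 alternatives ended the call. No member was called in this test.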

How the results depend on the processing

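No called member estimate changed sign under any alternative. Among estimates that were not called, 28 changed sign, in 9 pairs of a gene and a comparison, none of them called under the alternative. They include CDC25C with both drugs against control (0.09, and -0.07 with library size scaling) and the interaction of PKMYT1 (0.26, and -0.07 without teriflunomide replicate 3) and of ATM (0.17, and -0.01 without combination replicate 1). With lurbinectedin against control 134 of 135 member results kept their call, with both drugs against control 127 of 135, and for the interaction all 180. The number of members called stayed at 7 or 8 with lurbinectedin and with both drugs, at 8 or 9 for both against teriflunomide, and at 0 for the interaction. For teriflunomide against control it was 0, and 1 with no expression filter. For both drugs against lurbinectedin it was 0, and 2 without teriflunomide replicate 3 and combination replicate 2. Leaving out teriflunomide replicate 3 alone, a library outside that comparison, called CDC25A (-0.26, edgeR adjusted p = 0.0225). Leaving out 1 library at a time gave 8 for lurbinectedin, 7 to 8 for both drugs and 0 for teriflunomide against control. Replicate numbers gave no sign of pairing the samples: same-numbered libraries correlated at -0.402 to 0.144 (mean -0.0521) and the others at -0.206 to 0.363. With 3 libraries a group such correlations cannot exclude pairing. With the replicate block 8 members were called with lurbinectedin and 7 with both drugs, CDC25B being the call lost. Counts over all genes moved more. Teriflunomide against control called 1002 genes, 265 with library size scaling, 283 with only the groups compared, 415 with the block, 1907 by DESeq2, 230 at 0.01, 1800 with no filter and 216 to 1555 without 1 library. Both drugs against lurbinectedin called 0, but 584 by DESeq2, 612 with no filter, 94 with only the groups compared, 259 without combination replicate 2 and 3640 without both doubted libraries. The interaction called 43, but 616 without teriflunomide replicate 3, 1839 without both, 258 by DESeq2 and 2 at the fewest; only the groups compared could not be run for it. Library size scaling moved the median log2 change of all genes from 0.05 to -0.18 with lurbinectedin and from 0.04 to -0.13 with both, and the share of calls that were higher from 50.2% to 39.2% and from 49.8% to 41.0%. No called member changed direction under it. The cause of these shifts was not tested. SLFN11 did not pass the filter, and overlapping intervals do not decide whether it differed from control.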
